A study of Mus musculus with 6 samples.

Results

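AXL, TYRO3 and MERTK, the 3 receptors of the TAM family of tyrosine kinases, and GAS6 and PROS1, their 2 ligands, were examined in 6 expression arrays from Lewis lung carcinoma (LLC), a mouse lung tumour line. The 5 genes are members of a set of 18620 genes with a row of their own, and were found by name: each had 1 row with a single symbol, and rows would have been chosen by their mean signal over the 6 libraries had there been several, a step that removed nothing. Mice carried 1000000 LLC cells, mixed with a basement membrane gel, under the skin of the left flank. The 3 anti-PD-1 libraries came from tumours of mice that received 250 µg of anti-PD-1 antibody by intraperitoneal injection, 1 dose per 3 days; PD-1 is a brake on T cell activation. The protocol gives the IgG2a isotype antibody at the same dose as the alternative, and the 3 control libraries are labelled as tumours without anti-PD-1. The series text describes the material otherwise, as LLC cells that survived 7 days of the antibody and LLC cells left untreated. Strain, age and sex of the mice, and whether each library is a separate animal, are not given in the sources used here, so p-values rest on library-to-library spread that may be technical only. A tumour holds the grafted line together with host cells, and in such bulk RNA fewer cells of a type and less RNA per cell cannot be told apart.

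TAM receptors sit in the cell membrane and are switched on by GAS6 or protein S, which bridge them to phosphatidylserine on dying cells, platelets and vesicles. The bridge depends on an amino-terminal region whose glutamates are carboxylated with vitamin K. In macrophages and dendritic cells the receptors drive the engulfment of dead cells and dampen interferon and cytokine responses, and in tumour cells AXL in particular is known for survival signalling and drug tolerance. AXL binds GAS6 and not protein S, whereas TYRO3 and MERTK respond to both.

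Signals are log2 values on which 1 unit is a 2-fold difference, and each difference is the anti-PD-1 mean less the control mean, with groups as labelled. That direction is contradicted inside the authors' deposited table: the averages it names C fit the P signals, and those it names P the C signals, in 21363 of 21448 rows (99.6%, within 0.05). All 5 TAM rows are among them. For AXL the authors' deposited table gives an average of 11.46 under C and 13.05 under P, beside signals near 13 in libraries labelled control. Should the averages carry the true letters, every direction given below turns round. The row identifiers raise a further limit. Mouse (mm10) annotation is named in the headers, whereas the symbol and chromosome columns follow the human genome. The chromosome number inside the identifier equalled the chromosome column in 5670 of 20856 rows (27.2%), and in 1 of the 5 TAM rows (MERTK). It equalled the chromosome of the mouse gene of the same name in 731 of 16086 rows (4.5%). Gene names below are those of the symbol column and do not settle the species. Whether each symbol belongs to the signals of its row was not tested, and each gene below is read on that condition. Library medians lay between 7.71 and 7.77. Pearson correlations over rows ran from 0.9955 to 0.9963 within groups and from 0.9808 to 0.9823 between them.

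By sample label the 3 receptors were lower and the 2 ligands higher in anti-PD-1 libraries. AXL fell 3.09-fold, TYRO3 1.99-fold and MERTK 1.84-fold, while GAS6 rose 6.84-fold and PROS1 6.95-fold. All 5 passed an adjusted p of 0.05 in limma, a linear model fitted across all rows with Benjamini-Hochberg adjustment over them, where 29.8% of rows passed (14.7% higher and 15.1% lower). In all 5 the groups did not overlap, which held for 43.5% of rows. AXL, GAS6 and PROS1 also exceeded 2-fold, which 7.64% of rows did while past the threshold (4.01% higher and 3.63% lower). GAS6 and PROS1 exceeded 4-fold, as 1.66% of rows did. Differences in this family were known when the genes were chosen, so these counts describe the family and do not single it out. All 5 rows were marked as expressed in both conditions in the authors' deposited table, as were 85.0% of rows.

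**Figure D1:**
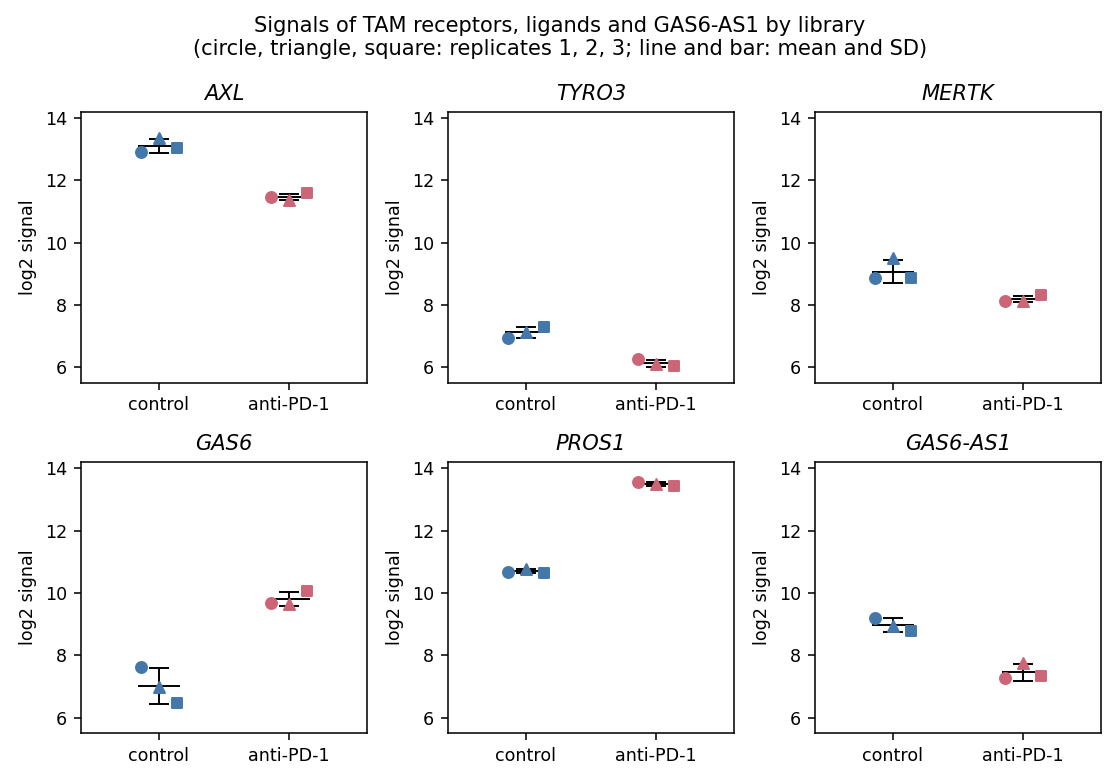
Log2 signal (vertical axis, same scale in each panel) of AXL, TYRO3, MERTK, GAS6, PROS1 and GAS6-AS1 in the 3 control and 3 anti-PD-1 libraries. Marker shapes stand for replicates 1 to 3, and the line and bar for mean and SD; in no panel do the groups overlap, and the smallest gap is that of MERTK, at 0.53.

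Where the genes start was looked at in the mouse RefSeq promoter table (GRCm38.p6), because the labels name mouse samples; all 5 symbols matched by name, and the species conflict above applies. The windows of AXL, as the receptor that fell most, and of both ligands are shown. Each is the 250 bases before the start site, with matches to the searched motifs in capitals. Axl lies on chr7:25788734-25788983 (minus strand), Gas6 on chr8:13494536-13494785 (minus strand) and Pros1 on chr16:62854057-62854306 (plus strand).
Axl: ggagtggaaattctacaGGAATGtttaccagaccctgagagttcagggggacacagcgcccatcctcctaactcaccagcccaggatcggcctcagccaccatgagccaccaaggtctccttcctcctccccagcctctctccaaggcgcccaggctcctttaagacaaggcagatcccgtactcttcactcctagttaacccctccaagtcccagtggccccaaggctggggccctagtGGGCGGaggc
Gas6: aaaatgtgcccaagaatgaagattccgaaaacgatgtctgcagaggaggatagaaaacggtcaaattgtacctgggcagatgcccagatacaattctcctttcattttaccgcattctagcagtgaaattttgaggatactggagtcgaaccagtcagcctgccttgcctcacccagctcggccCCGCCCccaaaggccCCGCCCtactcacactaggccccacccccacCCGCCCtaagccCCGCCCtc
Pros1: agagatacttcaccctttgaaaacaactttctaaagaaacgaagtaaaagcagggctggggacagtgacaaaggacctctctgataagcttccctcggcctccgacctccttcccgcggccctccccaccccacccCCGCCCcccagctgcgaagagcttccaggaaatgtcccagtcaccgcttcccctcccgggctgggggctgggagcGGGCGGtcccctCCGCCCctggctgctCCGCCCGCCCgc
The motifs, each searched on both strands, were the GC box of Sp1 (GGGCGG), the AP-1 site (TGANTCA), the TEAD site (GGAATG) and the E-box of ZEB and SNAI factors (CACCTG). A GC box was found in all 5 windows, against 32.7% of 32851 windows of the same length. Axl held 1, Tyro3 and Mertk 3 each, Gas6 4 and Pros1 5, of which the last 2 overlap. The TEAD letters occurred once, in Axl, 233 bases before the start, and are held by 12.6% of windows. AP-1 letters (6.75% of windows) and the E-box (17.2%) were in none of the 5. These matches are a description of letters, not of binding sites. The windows differed in composition, from 54.8% G and C in Gas6 to 73.2% in Tyro3. CpG pairs ran from 5 in Axl to 24 in Tyro3, with 10 in Gas6.

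AXL, the receptor with the largest fall, had control signals of 12.92, 13.34 and 13.03 and anti-PD-1 signals of 11.45, 11.38 and 11.58. Control replicate 2 was the highest, and the lowest control library lay 1.34 above the highest anti-PD-1 library. Means went from 13.10 ± 0.22 to 11.47 ± 0.10 (SD, n = 3 each), a difference of -1.63 ± 0.13 (SE; 95% confidence interval -1.94 to -1.32; adjusted p = 0.000162 in limma). It was the 292nd largest fall of the 21448 rows. With 85.5% of rows at or below its mean signal, AXL was a bright row in both groups. The file places it on chromosome 19, plus strand, from 41219199 to 41261767, with the build unsettled.

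TYRO3, a receptor best known from the nervous system and also found in immune and tumour cells, was the dimmest row of the family. It read 6.94, 7.12 and 7.3 in control and 6.25, 6.09 and 6.05 in anti-PD-1 libraries. The control libraries were all higher, by at least 0.69, and spanned 0.36 among themselves. The difference was -0.99 ± 0.12 (SE; 95% confidence interval -1.27 to -0.71; adjusted p = 0.00101 in limma). Its mean signal of 6.62 lay below the median of all rows, 7.74. The file places TYRO3 on chromosome 15, plus strand, from 41557675 to 41583586.

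MERTK, the receptor most tied to dead-cell engulfment by macrophages and by the pigment cells behind the retina, read 8.85, 9.50 and 8.87 in control libraries and 8.13, 8.13 and 8.32 in anti-PD-1 libraries. Control replicate 2 again stood above the other controls, and the groups did not overlap. The difference was -0.88 ± 0.19 (SE; 95% confidence interval -1.32 to -0.44; adjusted p = 0.0117 in limma). This was the smallest difference of the family and had the widest interval of the 3 receptors. Without control replicate 2 it was -0.67, with a smaller adjusted p of 0.00782. At an adjusted p of 0.01 MERTK would not be called. Its place in the file is chromosome 2, plus strand, from 111898479 to 112029561.

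GAS6, the ligand of all 3 receptors, read 7.63, 6.98 and 6.46 in control libraries and 9.69, 9.64 and 10.06 in anti-PD-1 libraries. The controls were spread over 1.17, the widest range of the family, yet the highest of them lay 2.01 below the lowest anti-PD-1 library. Means went from 7.02 ± 0.59 to 9.80 ± 0.23 (SD, n = 3 each), a difference of 2.77 ± 0.29 (SE; 95% confidence interval 2.09 to 3.45; adjusted p = 0.000498 in limma). It ranked 88th among rises. The file places GAS6 on chromosome 13, minus strand, from 113820549 to 113864103.

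PROS1 encodes protein S, a plasma anticoagulant cofactor that is also a ligand of TYRO3 and MERTK. It read 10.68, 10.78 and 10.65 in control libraries and 13.56, 13.51 and 13.43 in anti-PD-1 libraries. Both groups spanned only 0.13, and the gap between them was 2.65. Means went from 10.70 ± 0.07 to 13.50 ± 0.07 (SD, n = 3 each), a difference of 2.80 ± 0.09 (SE; 95% confidence interval 2.59 to 3.0, or 6.02-fold to 8.02-fold; adjusted p = 7.01e-06 in limma). It ranked 81st among rises, beside GAS6, and was the more evenly measured of the pair. PROS1 is placed on chromosome 3, minus strand, from 93873033 to 93974090.

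**Figure D2:**
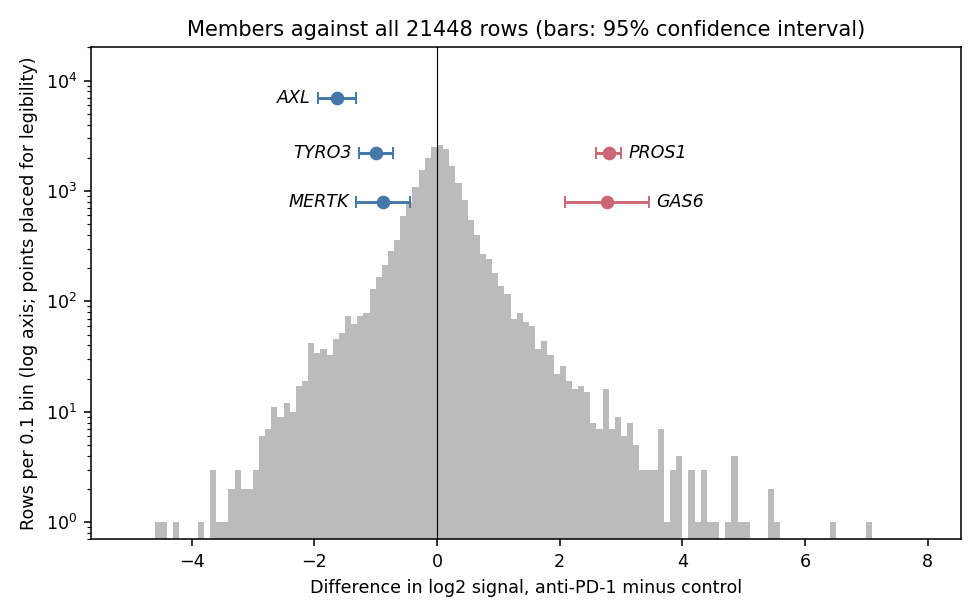
Differences in log2 signal (horizontal axis) of the 5 TAM genes, as points with 95% confidence intervals, over the distribution of all 21448 rows in bins of 0.1 (grey bars, log axis). The 3 receptors lie between -1.63 and -0.88, and the 2 ligands at 2.77 and 2.80.

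A row named GAS6-AS1, an antisense RNA of the GAS6 locus, moved against GAS6; it was singled out after its values were seen. The file places it on the plus strand of chromosome 13 from 113815610 to 113845746, so that 25198 bases are shared with GAS6 on the other strand. It read 9.20, 8.93 and 8.77 in control libraries and 7.26, 7.76 and 7.34 in anti-PD-1 libraries, a difference of -1.51 ± 0.17 (SE; adjusted p = 0.000728 in limma). The groups did not overlap, as in 43.5% of rows. By label the antisense row thus fell where the ligand rose. No mouse gene of that name was found in the mouse gene reference used. The identifiers of this row and of GAS6 hold chromosome number 11, where the file places both on 13. The limits on species and gene names given above therefore apply to this pair.

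The authors' deposited table holds robust group averages, and its signed fold for each gene differs a little from the folds above. It gives -3.01 for AXL, -2.07 for TYRO3 and -1.65 for MERTK, 6.28 for GAS6 and 7.09 for PROS1, as C relative to P. Its false discovery rates run from 6.52e-06 for PROS1 to 0.0118 for MERTK. In the signals as labelled, C and P change places.

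Among 57 measured receptor tyrosine kinase genes, the 3 TAM receptors were 3 of 9 that fell, and 8 rose. Counted from the largest fall, AXL took place 2, after EPHA2, an ephrin receptor of epithelial cells (-2.19, adjusted p = 3.13e-05 in limma). TYRO3 took place 4 and MERTK place 6. Between the 3 stood MST1R, the receptor of macrophage stimulating protein (-1.13, adjusted p = 0.00345), and NTRK2, a neurotrophin receptor (-0.96, adjusted p = 0.00496). Of the other 54 kinases 8 rose, 6 fell and 40 did not pass, so that 25.9% were called, against 29.8% of all rows. Their median difference was 0.00, against 0.01 over all rows. The largest rises were ROS1, an orphan-class receptor studied as a lung cancer oncogene (4.75, adjusted p = 5.5e-05), and DDR2, a collagen receptor (1.59, adjusted p = 0.000182). Without anti-PD-1 replicate 2 the number of kinases that rose was 5.

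**Figure D3:**
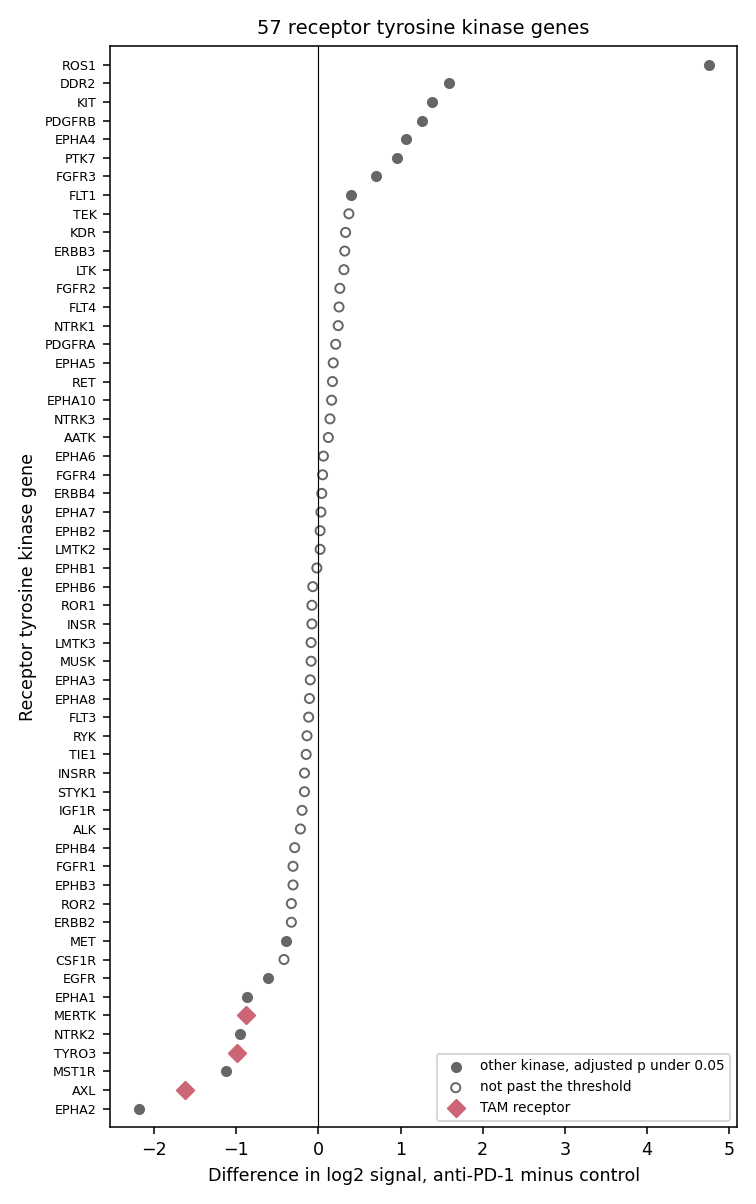
Difference in log2 signal (horizontal axis) of 57 receptor tyrosine kinase genes in order of size. Diamonds are the TAM receptors, filled circles other kinases past the adjusted threshold and open circles those that did not pass it; AXL, TYRO3 and MERTK take places 2, 4 and 6 from the bottom.

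Genes that act beside the ligands and receptors were read in the same libraries. Of 3 other proteins reported as TAM ligands, 0 passed in limma, and 1 had an unadjusted p under 0.05. LGALS3, or galectin-3, stood at -0.02 (adjusted p = 0.914), TULP1 at 0.04 (adjusted p = 0.816) and TUB at 0.60 (adjusted p = 0.0841). These 3 ligands had 1 rise with a trended robust prior, and 1 without control replicate 3. Of 6 genes described here from the vitamin K cycle, on which ligand carboxylation depends, 0 passed in limma, and 1, CALU, had an unadjusted p under 0.05. The carboxylase GGCX stood at 0.21 (adjusted p = 0.169), the reductases VKORC1 at 0.03 (adjusted p = 0.829) and VKORC1L1 at -0.18 (adjusted p = 0.183), NQO1 at -0.16, AIFM2 at -0.29 and CALU at 0.23. All 6 were brighter than the median row.

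Among 11 other genes for proteins with a carboxylated glutamate region, 4 rose, 1 fell and 6 did not pass (45.5% called, against 29.8% of all rows). PRRG4, a membrane protein, rose by 1.23 (adjusted p = 0.000762) and PRRG2 by 0.61 (adjusted p = 0.0147), while MGP, an inhibitor of calcification, fell (-1.26, adjusted p = 0.00182). The median of the list was 0.07. The 4 rises became 3 with a replicate block or a trended robust prior. With rows below the median left out, where 3 of the 11 genes remain, there was 1 rise. Prothrombin (F2, -0.03, adjusted p = 0.934) and factor IX (F9, -0.04, adjusted p = 0.885) were among 3 of the 11 with a mean signal below 5.08, the mark under which 25% of rows lie.

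TAM receptors are cut from the cell surface by the metalloproteases ADAM10 and ADAM17. ADAM17 read 11.74, 11.54 and 11.45 in control and 12.24, 12.22 and 12.34 in anti-PD-1 libraries, and rose by 0.69 (adjusted p = 0.00279 in limma). ADAM10 rose by 0.38 (adjusted p = 0.016), a call lost without control replicate 3 or anti-PD-1 replicate 2 or 3 (adjusted p from 0.0523 to 0.0612), which leaves 1 rise in the list. TIMP1, a metalloprotease inhibitor, fell (-0.74, adjusted p = 0.000646). The iRhom proteins that carry ADAM17 to the surface, RHBDF1 (0.18, adjusted p = 0.315) and RHBDF2 (-0.16, adjusted p = 0.417), and TIMP3 (0.18, adjusted p = 0.57) did not pass. Over these 6 genes 2 rose and 1 fell (50.0% called, against 29.8% of all rows), and TIMP2 was not used.

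Of 24 signal transducers and regulators linked to TAM receptors, 8 rose, 3 fell and 13 did not pass. That is 45.8% called, against 29.8% of all rows, with a median of 0.08. CBLB, a ubiquitin ligase that marks TAM receptors and other receptors for removal, rose most (1.40, adjusted p = 9.26e-05 in limma). DOCK1, an activator of RAC in engulfment downstream of MERTK, rose by 0.70 (adjusted p = 0.00809). PLCG2, a phospholipase (-1.03, adjusted p = 0.00493), and BCAR1, an adaptor protein (-0.50, adjusted p = 0.00754), fell. The 8 rises became 4 without control replicate 3 and 5 without anti-PD-1 replicate 2. Of 9 genes of the interferon feedback loop, in which TAM receptors use the interferon receptor to induce SOCS proteins, 3 rose and 0 fell (33.3% called, near the 29.8% of all rows). IFNAR2, a receptor subunit, rose by 0.59 (adjusted p = 0.00232) and JAK1, its kinase, by 0.51 (adjusted p = 0.0146, a call lost without control replicate 3 or anti-PD-1 replicate 1). SOCS1 (-0.24, adjusted p = 0.145) and SOCS3 (0.01, adjusted p = 0.946) did not pass. The loop had 1 rise without anti-PD-1 replicate 1, 5 with rows below the median left out and 6 with a trended robust prior. At an unadjusted p under 0.05 it had 4 rises and 0 falls.

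**Figure D4:**
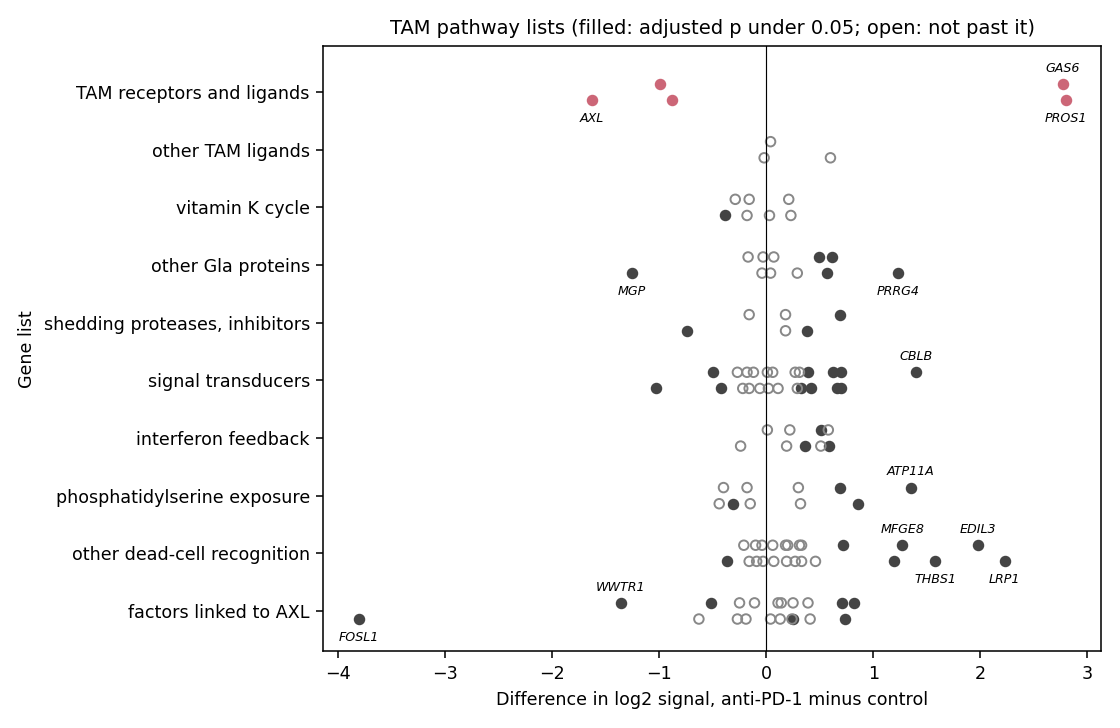
Difference in log2 signal (horizontal axis) of each measured gene in 10 lists of the TAM pathway, 1 list per row. Filled points passed the adjusted threshold and open points did not, with names for filled points at 1.2 or further from 0; the 5 TAM genes (top row) are all filled, and 3 other ligands (second row) are all open.

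The dead-cell recognition system also holds bridges and receptors outside the TAM family. Of 23 such genes 6 rose, 1 fell and 16 did not pass (30.4% called, near the 29.8% of all rows), with a median of 0.20. LRP1, a large scavenger receptor that takes part in engulfment, read 8.16, 8.83 and 8.10 in control and 10.72, 10.47 and 10.59 in anti-PD-1 libraries, and rose by 2.23 (adjusted p = 0.000268 in limma). EDIL3, which links phosphatidylserine to integrins, rose by 1.98 (adjusted p = 1.5e-05). MFGE8, the other bridge of that kind, rose by 1.27 (adjusted p = 6.38e-05) and was named after its value was seen. GULP1, an engulfment adaptor, fell (-0.37, adjusted p = 0.0147), a call lost without control replicate 3 (adjusted p = 0.0527) or anti-PD-1 replicate 3 (adjusted p = 0.0503). The T cell immunoglobulin and mucin receptors TIMD4 (0.07, adjusted p = 0.805), HAVCR1 (-0.03, adjusted p = 0.939) and HAVCR2 (0.31, adjusted p = 0.247) did not pass and had mean signals of 3.93, 3.78 and 4.95.

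Phosphatidylserine itself is exposed by scramblases and withdrawn by flippases. Of 10 such genes 3 rose, 1 fell and 6 did not pass (40% called, against 29.8% of all rows), with a median of 0.07. There were 2 falls after median centring, with a trended robust prior and under both filters on dim rows. ATP11A, a flippase, rose by 1.35 (adjusted p = 0.000481 in limma), TMEM30A, the subunit flippases need, by 0.86 (adjusted p = 0.00042) and ANO6, a scramblase, by 0.69 (adjusted p = 0.00115). The apoptotic scramblase XKR8 stood at -0.44 (adjusted p = 0.0662). PLSCR1, which despite its name is better known as an interferon-induced protein, fell (-0.31, adjusted p = 0.0488). That call was lost without any 1 library except control replicate 1, and with a replicate block (adjusted p = 0.0779).

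Of 20 transcription factors, or partners of such factors, that have been linked to AXL expression, 4 rose, 3 fell and 13 did not pass (35.0% called, near the 29.8% of all rows), with a median of 0.12. FOSL1, an AP-1 subunit, read 14.52, 14.54 and 14.56 in control libraries and 10.58, 10.81 and 10.79 in anti-PD-1 libraries, a fall of -3.81 (adjusted p = 4.51e-06 in limma). WWTR1, or TAZ, a partner of TEAD factors, fell with it (-1.36, adjusted p = 0.000122), while its relative YAP1 stood at 0.13 (adjusted p = 0.451). TEAD2 rose by 0.82 (adjusted p = 0.00456) and ZEB2 by 0.74 (adjusted p = 0.0166, lost without control replicate 2 at an adjusted p of 0.0507). HIF1A (0.04, adjusted p = 0.801) and SP1 (-0.11, adjusted p = 0.42) did not pass. Without control replicate 2 there were 2 rises, and there were 5 falls after median centring, with a trended robust prior or with rows below the 25th percentile left out.

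Genes nearest in pattern to each member were found by the root mean square distance between signals over the 6 libraries, each row centred on its own mean, among 17616 genes. With 2 groups, nearness reflects mostly the size of the group difference. Nearest to AXL were STRIP2 (distance 0.076, difference -1.71), KIF20A, a mitotic kinesin (0.081, difference -1.56), and PPARG, a nuclear receptor (0.095, difference -1.68). TYRO3 was nearest to SNRPB, a splicing protein (0.057), SPATA33 and HPDL, and MERTK to ITPR3, a calcium channel (0.060), MAP3K14 and MPP2. PROS1 lay close to TMOD2, an actin capping protein (0.054), LTBP2, a matrix protein (0.078), and GABARAPL1, an autophagy protein (0.081). GAS6 had no neighbour nearer than 0.213, which was SMPDL3B, followed by FLG (0.222) and MRAS (0.231).

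TAM receptors mark macrophages, dendritic cells and some vessel and stromal cells as well as tumours, so markers of those cells were read in the same libraries. Of 17 macrophage markers 1 rose, 1 fell and 15 did not pass (11.8% called, against 29.8% of all rows). Their summed log2 signal ran from 99.6 to 102.3 in control and from 98.7 to 100.6 in anti-PD-1 libraries. In 9 of them, ADGRE1 among them (3.70), the mean signal lay below 5.08, and CSF1R, the growth factor receptor of macrophages, stood at -0.42 (adjusted p = 0.141 in limma). The 1 that fell was CD68 (-1.64, adjusted p = 9.46e-05) and the 1 that rose was CD14 (1.19, adjusted p = 0.0019); both were singled out as the 2 calls in their list, and CD14 is also 1 of the 6 rises among engulfment genes above. Of 11 T cell, NK cell and pan-leukocyte markers 8 lay below 5.08 and 0 above the median, with PTPRC, the common leukocyte antigen, at a mean of 5.55. Their summed signal was 48.2 to 50.8 and 49.5 to 51.3, and 1 rose and 1 fell (18.2% called). The rise, of NCR1 (0.39, adjusted p = 0.0466), was lost without any 1 library (adjusted p from 0.0569 to 0.14) and with a replicate block (adjusted p = 0.0555). The fall, of CD4 (-0.46, adjusted p = 0.0108 in limma), held without each library in turn (adjusted p from 0.0154 to 0.0398). CD4 was a dim row, with a mean signal of 4.76. Of 8 dendritic cell markers 0 passed in limma (0 at an unadjusted p under 0.05), with sums of 45.9 to 48.1 and 46.8 to 47.5. Of 9 endothelial markers 1 fell and 0 rose (11.1% called), with sums of 48.1 to 49.9 and 49.1 to 50.0. Of 4 platelet markers 0 passed (0 at an unadjusted p under 0.05), with sums of 21.2 to 22.3 and 21.6 to 22.

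Some markers of smooth muscle and of fibroblasts were higher in anti-PD-1 libraries, as the ligands were. Of 6 smooth muscle markers, CNN1, DES and TAGLN made 3 rises and 0 fell (50.0% called, against 29.8% of all rows), and the summed log2 signal ran from 48.1 to 49.1 in control and from 59.9 to 60.9 in anti-PD-1 libraries. Most of that difference came from CNN1 (6.46) and TAGLN (3.71). MYH11, a defining myosin of smooth muscle, stood at -0.23 (adjusted p = 0.542 in limma), RGS5 at 0.11 (adjusted p = 0.524) and ACTA2 at 0.68 (adjusted p = 0.175), the last in a row whose deposited averages and SDs did not both match its signals under either naming. Of 9 fibroblast markers 2 rose, COL1A2 (3.15) and PDGFRB (1.26), and 0 fell (22.2% called, against 29.8% of all rows). Their sums were 56.1 to 56.9 and 61.3 to 61.8. DCN stood at 0.03 (adjusted p = 0.898) and PDGFRA at 0.21 (adjusted p = 0.401). At an unadjusted p under 0.05 in limma 3 fibroblast markers were higher and 2 lower, the latter FAP (-0.58) and POSTN (-0.43). The part of smooth muscle cells and fibroblasts in the rise of GAS6 and PROS1 was not tested. Of 8 epithelial markers 2 rose and 1 fell (37.5% called, against 29.8% of all rows), with sums of 88.6 to 90.3 and 89.5 to 90.7. The fall was that of EPCAM (-0.6, adjusted p = 0.0019 in limma), a row bright in both groups at means of 15.30 and 14.70. The rise of KRT8 (0.30, adjusted p = 0.0269) was lost without any 1 library (adjusted p from 0.0625 to 0.0827) and with a replicate block (adjusted p = 0.0808). That leaves 1 rise, of KRT14 (1.51, adjusted p = 0.000741), a dim row whose mean signal of 4.19 lay below 5.08.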

How the data were processed

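Single-colour arrays of 6 RNA samples were used, labelled from 250 ng of RNA per the labels' protocols. The deposited values are log2 signals made by the authors with SST-RMA at the gene level, per the file headers; Transcriptome Analysis Console is named in the submitters' processing notes, without a version. The authors' deposited table also holds group averages on the log2 scale, SDs and other columns, a signed fold, treated here as a score, and p-values with false discovery rates, all named per the file headers. Of 22206 identifiers 21448 had values. No probe-level intensity was used, so the number of arrays limits the precision.

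Groups follow the sample titles. Differences were tested on all 21448 rows by limma's moderated linear model (limma 3.58.1, R 4.3.3; 2-sided; group as sole term), adjusted over all rows at 0.05, and the fit was tested on simulated data. Lists used 1 row per single symbol, that of highest mean, and got no set test. The share set beside them, 29.8%, is of all 21448 rows and not of the 18620 genes with 1 row each. Of those genes 2929 were called higher and 2927 lower. The text names the 5 members, their 3 nearest patterns, the genes of the short lists (1 gene of the vitamin K list is not reported here) and up to 2 rises and 2 falls of longer lists past the threshold; other named genes are list members chosen to show those that did not pass or for their role, after values were seen. The genes, lists and motifs were chosen with earlier results of these data known. Averages were compared with one-step Tukey biweights of the signals, allowing 0.05 on averages and 0.02 on SDs; 111 rows (no member among them) matched under neither naming. Alternatives tried were median centring, quantile normalization, leaving out dim rows, 1 row per symbol, a trended robust prior, array weights, omission of the 111 rows, the series value table, a replicate block, each library left out and a threshold of 0.01.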

Additional observations from a re-analysis of the deposited data

How the results depend on the processing

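All 5 TAM genes kept their direction and stayed past the threshold of 0.05 in each alternative that tested them; TYRO3 drops out where rows below the median are left out, which leaves 4 called. The highest adjusted p over the alternatives was 0.0021 for AXL, 0.00847 for TYRO3, 0.0422 for MERTK, 0.00389 for GAS6 and 0.000407 for PROS1. Without each library in turn differences ran from -1.71 to -1.50 for AXL, -1.08 to -0.90 for TYRO3, -0.99 to -0.67 for MERTK, 2.49 to 3.08 for GAS6 and 2.77 to 2.84 for PROS1. At an adjusted p of 0.01, 3870 rows in place of 6391 and 4 of the 5 genes were called, fewer by construction. Calls over all rows were split 2778 higher and 3673 lower after median centring, against 3160 and 3231. Same-numbered libraries did not deviate together (correlations 0.013, -0.024 and 0.013), so the numbers give no pairing, and a replicate block gave 5363 rows and the same 5 genes. The series value table holds the same signals, so its results were bound to be equal. Signals are rounded to 2 decimals, and no background level was used here for dim rows.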
